A study of Actinidia chinensis with 12 samples.

Results

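A group of 65 genes stood higher in the flesh core than in the whole fruit of the kiwifruit cultivar Jinyan and at about the same level in both tissues of the cultivar Hongyang. They were selected from the 22199 genes with enough counts to be tested, out of 39040 gene identifiers in the table. The members were chosen by measured values, namely the group medians of CPM (counts scaled to a common library total, after TMM correction for differences in library composition), each with 1 added. The median in Jinyan core had to be at least 3 times that in Jinyan whole fruit. The ratio of core to whole fruit in Hongyang had to lie between 0.67 and 1.5. A member also needed a median with 1 added of at least 6 in Jinyan core and at least 2 in both Hongyang groups, and genes at least 8-fold apart between the cultivars in both tissues were to be dropped. That last condition removed none of the genes that met the others. Since these values chose the genes, the Jinyan difference and the flat Hongyang pattern are descriptions. Counts of members called by tests over all genes are given beside the share of all genes called, and they are not evidence for either pattern.

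The samples were ripened fruits, taken as whole fruit or as flesh core, from Jinyan and from Hongyang, all labelled Actinidia chinensis, with 3 RNA sequencing libraries in each of the 4 groups. The labels name no treatment, fruit age or tree, and none says that replicates came from separate fruits. The sample labels say whole fruit and the series design says periphery, so whether the whole fruit samples hold core tissue is not settled by the sources used here. In a kiwifruit the core is the pale central column of large storage cells, surrounded by the inner pericarp, which holds the locules with the seeds, and then by the outer pericarp beneath the skin. Hongyang is known for red pigment in the inner pericarp around the core, and Jinyan has yellow flesh. The identifiers in the table carry no gene names, so the functions of the members, the pathways they belong to and markers of seed, vascular or skin tissue could not be examined, and no sequence is shown. In bulk tissue, fewer cells of a type and less RNA per cell cannot be told apart.

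Replicate 3 of Hongyang whole fruit was shallow, with 1888744 counts in all, while the other 11 libraries held between 6870519 and 21222578. In the shallow library 1 CPM stood for 2.52 counts, against 7.63 to 21.1 counts in the other libraries. Hongyang whole fruit was also the group whose libraries differed most: over the 12179 genes that met the level conditions, the highest library was a median 1.76 times the lowest, against 1.23 in Jinyan whole fruit, 1.31 in Jinyan core and 1.26 in Hongyang core (CPM with 1 added). Among counts of 1 to 20, even values took a share of 56.2 to 60.3% in each library, and the reason was not tested.

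In Jinyan, the members ranged widely in level. The median CPM in core ran from 5.08 to 716, with a middle value of 28.8 over the 65 genes, and that in whole fruit from 0 to 186, with a middle value of 6.69. There were 10 members at 100 CPM or more in core, 29 between 20 and 100 CPM, and 26 below 20 CPM. The ratio of core to whole fruit was mostly close to the limit that chose the genes: 43 members lay below 4-fold, 13 between 4-fold and 6-fold, and 9 at 6-fold or more, with a middle value of 3.58 and a highest value of 11.1. None of the members had 0 counts in all the Jinyan whole fruit libraries, and 7 had 0 counts in at least 1 of them.

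Achn297461 had the largest Jinyan ratio. Its levels were 6.82, 11.8 and 9.61 CPM in Jinyan whole fruit replicates 1 to 3 and 150, 117 and 90.3 CPM in Jinyan core. In Hongyang it stood at 13.6, 17.8 and 15.1 CPM in whole fruit and at 17.9, 3.08 and 14.6 CPM in core. All Jinyan core libraries thus lay well above every other library, and Hongyang stayed near the Jinyan whole fruit level in both tissues, with core replicate 2 apart from the others. Jinyan whole fruit averaged 9.39 ± 2.48 CPM and Jinyan core 119 ± 29.7 CPM (SD, n = 3 each), and the ratio of medians with 1 added was 11.1 in Jinyan and 0.971 in Hongyang.

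Achn056301 followed, at 0.656, 2.18 and 3.23 CPM in Jinyan whole fruit and 61.7, 28.3 and 31.1 CPM in Jinyan core. In Hongyang it was measured at 18, 18.6 and 4.77 CPM in whole fruit and at 23.6, 12 and 39.3 CPM in core. The Jinyan tissues did not overlap, whereas the Hongyang tissues did, and here both Hongyang tissues were nearer to Jinyan core. The ratio of medians was 10.1 in Jinyan and 1.29 in Hongyang. These 2 genes also had the widest gap between the Jinyan tissues, the lowest core library being 7.16 and 6.92 times the highest whole fruit library with 1 added to each.

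The most abundant member in Jinyan core was Achn303851. It stood at 186, 265 and 135 CPM in Jinyan whole fruit and at 703, 716 and 740 CPM in Jinyan core. In Hongyang it had 63.7, 105 and 22.6 CPM in whole fruit and 83.5, 71.4 and 115 CPM in core, so every Hongyang library lay below every Jinyan library. The Jinyan core libraries were close together, at 720 ± 18.5 CPM (SD, n = 3), while the Hongyang whole fruit libraries were 4.47-fold apart with 1 added. Achn091201 was next, at 154, 143 and 205 CPM in Jinyan whole fruit and 453, 598 and 662 CPM in core. Its Hongyang core libraries, at 150, 152 and 160 CPM, lay within the range of its Jinyan whole fruit libraries, and its Hongyang whole fruit libraries, at 144, 266 and 66.7 CPM, spread around them.

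The lowest Jinyan core library lay above the highest Jinyan whole fruit library for 63 of the 65 members, beside 25.9% of all genes tested, in a contrast that the choice of members had used. The exceptions were Achn154181 and Achn233201, both described below for their Hongyang levels. Replicates were tighter in Jinyan than in Hongyang whole fruit: 53 members (81.5%) had their Jinyan whole fruit libraries within 2-fold, and 53 their Jinyan core libraries, beside 97.9% and 95.9% of the genes that met the level conditions. In Hongyang, 17 members (26.2%) had their whole fruit libraries and 44 (67.7%) their core libraries within 2-fold, beside 61.3% and 94.5%. The share was thus lower among the members in each of the 4 groups. In 3 members a single Jinyan core library stood over 2-fold above the next.

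**Figure D1:**
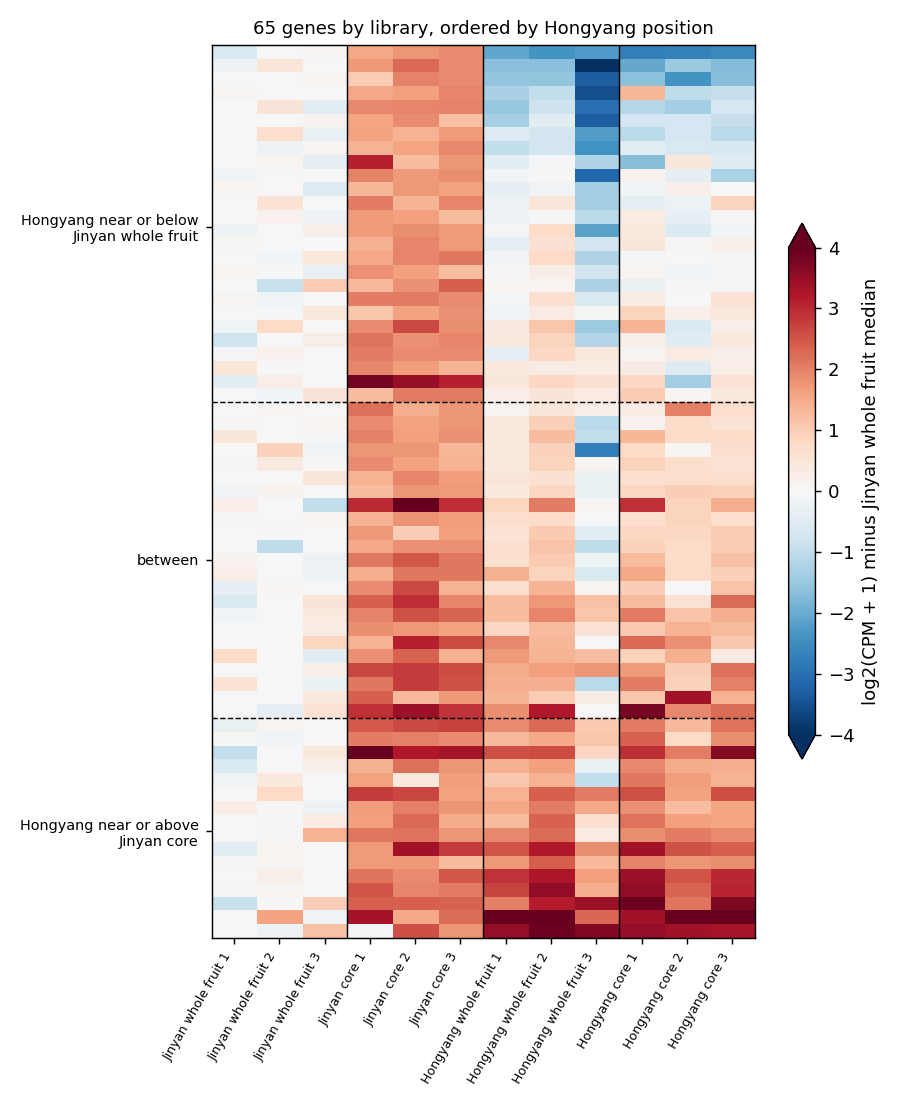
Each row is 1 of the 65 genes and each column 1 of the 12 libraries, and the colour gives log2(CPM + 1) minus the value at the gene's Jinyan whole fruit median, with values beyond 4 in either direction shown in the end colours. Rows are ordered by the position of the Hongyang level between Jinyan whole fruit and Jinyan core, and dashed lines part the 26, 23 and 16 genes of the 3 classes; Hongyang whole fruit replicate 3 is the lowest of its group in 54 rows.

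In Hongyang, the ratio of core to whole fruit had a middle value of 1.15 over the members, with a range of 0.735 to 1.5. It lay above 1 in 47 members. It was under 0.8 in 4 members, between 0.8 and the inverse of 0.8 in 34, and higher in 27. The members thus filled the upper part of the permitted range more than the lower. The middle value was 1.01 over all genes tested and 1.06 over the 12179 genes that met the level conditions. By edgeR, no member passed an adjusted p under 0.05 for the Hongyang tissue difference, beside 2.50% of all genes called higher and 2.18% called lower in core. At an unadjusted p under 0.05 there were 3 higher and 1 lower, beside 11.8% and 11% of all genes. In either direction, DESeq2 called 1 member, beside 11.9% of all genes, and limma voom with sample weights called 3, beside 27.5%. These counts follow from choosing flat genes. The Hongyang core libraries lay above all whole fruit libraries in 3 members, beside 14.4% of all genes, and below them in 1 member, beside 10.5%.

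The flat pattern in Hongyang was one of medians, and single libraries departed from it together. Hongyang whole fruit replicate 3 was the lowest library of its group in 54 of the 65 members (83.1%), beside 56.4% of the 12179 genes that met the level conditions. Replicate 2 was the highest in 54 members (83.1%), beside 49.4%. Replicate 1 therefore set the median in most members. Set against replicate 1, the Hongyang core median lay within 0.67 to 1.5 in 61 members (93.8%), beside 74.3% of those 12179 genes. The rule mostly used that library as the median, so this count was largely fixed by the choice. Set against replicate 2, the core median did so in 55 members (84.6%), beside 79.1%. It lay under 0.67 in the other 10 (15.4%), beside 8.34%. Set against replicate 3, it did so in 16 (24.6%), beside 43.8%. In 49 members (75.4%) the core median was more than 1.5 times replicate 3. It was at least 3 times that library in 21 of them (32.3%), beside 12.4%. Among the genes that met the level conditions the corresponding share over 1.5 against replicate 3 was 39.5%. All 6 Hongyang libraries lay within 2-fold of each other in 11 members (16.9%), beside 45.8% of the genes that met the level conditions.

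Replicate 3 is also the shallow library. It held fewer than 10 counts for 32 of the 65 members (49.2%), beside 11.1% of the genes that met the level conditions. It held 0 counts for 10 members (15.4%), beside 17.8% of all genes tested, a set that also holds genes below the level conditions. Among genes that met the level conditions, the share with 0 counts was not counted and cannot exceed that 11.1%. The part of its depth in the low values was not tested. When every library was thinned to the same total, the rule found 67 genes, 36 of them among the 65. The mean over the 65 of log2(CPM + 1), core minus whole fruit in Hongyang, was 0.40 at full depth and 0.37 at equal depth. Dropping replicate 3 made it -0.01, and dropping replicate 2 made it 0.70.

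The library means showed the same order. In Jinyan the mean over the members of log2(CPM + 1) was 3.00 ± 0.0884 (SD, n = 3) in whole fruit and 4.94 ± 0.0795 (SD, n = 3) in core, where the genes were chosen to differ. In Hongyang core it was 4.02, 3.62 and 3.88 in replicates 1 to 3. In Hongyang whole fruit it was 3.63, 4.04 and 2.65, so that replicate 2 lay above every core library, replicate 1 within their range, and replicate 3 below every Jinyan library. Over all genes tested, the means of the 12 libraries lay between 3.06 and 3.30, the lowest being that replicate 3.

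**Figure D2:**
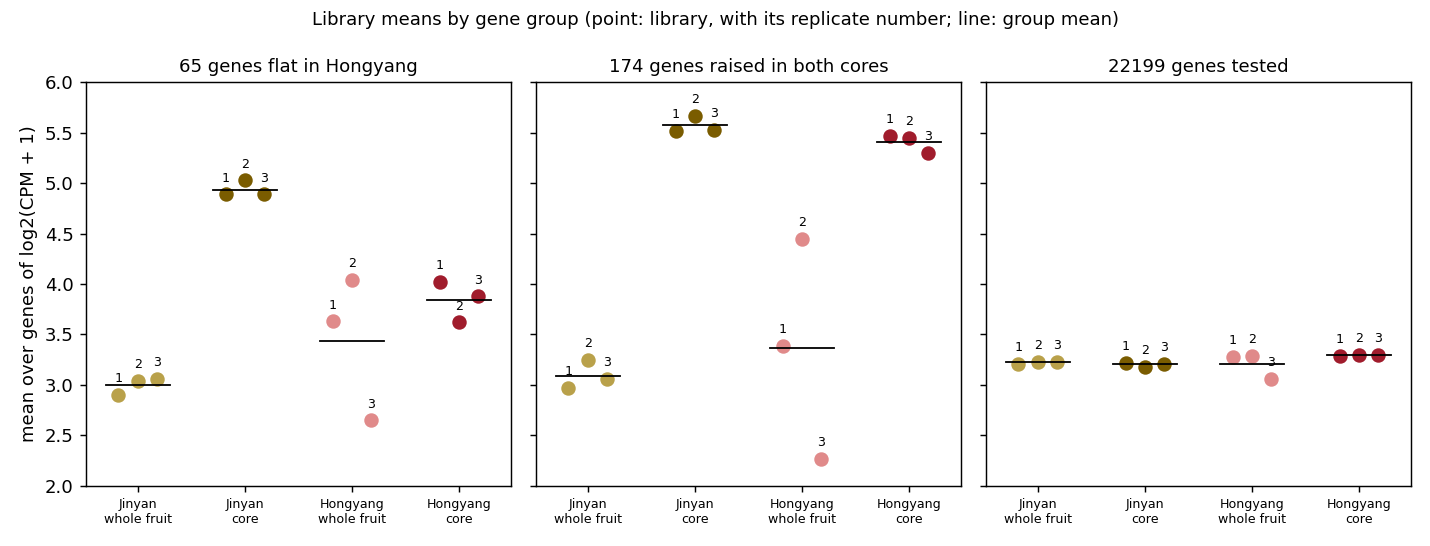
The vertical axis gives the mean over genes of log2(CPM + 1) in each library, for the 65 members, for 174 genes raised in the core of both cultivars, and for all 22199 genes tested; points are libraries with their replicate numbers and lines are group means. Hongyang whole fruit replicates 2 and 3 stand at 4.04 and 2.65 over the members and at 4.45 and 2.27 over the 174 genes.

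Achn297481 had the widest range in Hongyang whole fruit among members with a Jinyan core median of at least 10 CPM. It stood at 11.6 and 16.8 CPM in Hongyang whole fruit replicates 1 and 2 and at 0.397 CPM, a single count, in replicate 3, while Hongyang core held 15.4, 8.82 and 14.4 CPM. In Jinyan it had 8.39, 16.8 and 7.3 CPM in whole fruit and 30.9, 30.6 and 22.8 CPM in core. Leaving the shallow replicate aside, its Hongyang levels were alike in both tissues. Achn367971 came next, at 27.2, 69.2 and 6.75 CPM in Hongyang whole fruit and 106, 28.3 and 35.5 CPM in core, against 6.69, 4.97 and 10.4 CPM in Jinyan whole fruit and 56.7, 81.3 and 55.7 CPM in Jinyan core. Its Hongyang medians were 1.29-fold apart although libraries within each tissue differed 9.06-fold and 3.65-fold. Its flat call therefore rested on widely spread libraries.

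Among the same members, those with at least 10 CPM in Jinyan core, Achn363261 and Achn290531 had the narrowest ranges in Hongyang whole fruit. Achn363261 stood at 57.8, 69.4 and 60 CPM in Hongyang whole fruit and 97.2, 50.9 and 64.4 CPM in core, mostly close to its Jinyan whole fruit libraries at 47.9, 44.5 and 68.9 CPM. Its Jinyan core libraries, at 115, 200 and 204 CPM, lay above all of these. For this gene the Hongyang libraries of both tissues overlapped and only Jinyan core stood apart.

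The level at which Hongyang was flat differed between members. It was placed on a scale on which 0 is the Jinyan whole fruit median and 1 the Jinyan core median, on a log scale with 1 added to each median, taking the geometric mean of both Hongyang medians. The positions ran from -1.4 to 2.02 with a middle value of 0.383. In 26 members (40.0%) Hongyang lay near or below Jinyan whole fruit (position under 0.25), in 23 (35.4%) between the Jinyan tissues, and in 16 (24.6%) near or above Jinyan core (position over 0.75). It was below the Jinyan whole fruit median in 18 members and above the Jinyan core median in 6. A gene with a lower level and a gene whose reads align less well in a cultivar cannot be told apart from counts, which bears on each comparison of cultivars.

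In the 26 members near or below Jinyan whole fruit, the middle ratio of Hongyang to Jinyan was 0.894 in whole fruit and 0.26 in core. Achn290531 had the lowest position. It was measured at 9.83, 15.4 and 16.5 CPM in Jinyan whole fruit and 46.6, 54.8 and 59.2 CPM in Jinyan core, against 2.91, 2.1 and 2.38 CPM in Hongyang whole fruit and 1.43, 1.54 and 1.75 CPM in Hongyang core. Every Hongyang library lay below every Jinyan library. Hongyang core stood at 1.58 ± 0.162 and Hongyang whole fruit at 2.46 ± 0.412 CPM (SD, n = 3), with 6 counts behind whole fruit replicate 3. The log2 ratio of medians, core over whole fruit, was -0.41 here and turned to 0.36 at equal depth, so no direction between the Hongyang tissues is given for this gene. Achn100511 was similar, at 17.7, 29.2 and 20.7 CPM in Jinyan whole fruit, 71.6, 104 and 79.1 CPM in Jinyan core, 5.74, 5.85 and 0 CPM in Hongyang whole fruit and 4.22, 6.84 and 5.49 CPM in Hongyang core. With the 0 in the shallow replicate, both tissues of Hongyang were below both of Jinyan in every library.

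In the 23 members between, the middle ratio of Hongyang to Jinyan was 1.6 in whole fruit and 0.531 in core. Their middle level in Jinyan whole fruit was the lowest of the 3 classes, with 2.79 CPM there and 19.4 CPM in Jinyan core, and 9.27 and 11 CPM in Hongyang whole fruit and core. In the 16 members near or above Jinyan core, the middle ratio was 3.98 in whole fruit and 0.956 in core. Their middle Jinyan ratio was 4.25, against 3.49 in the members near or below Jinyan whole fruit and 3.57 in those between. The position is computed from the same Jinyan and Hongyang medians as these ratios between cultivars, and the rule held the Hongyang tissues close together. In all 3 classes those ratios are therefore largely fixed by the way the classes were formed, and nothing is read from them. The Jinyan ratios of the classes also come from medians that the position uses.

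Achn233201 had the highest position. Its Hongyang libraries stood at 183, 242 and 212 CPM in whole fruit and 184, 165 and 158 CPM in core, far above 15.2, 13.1 and 35.4 CPM in Jinyan whole fruit. Its Jinyan core libraries were 14.8, 96.1 and 53.5 CPM, so replicate 1 lay within the whole fruit range and the other replicates above it. The Jinyan difference of this member therefore rested on 2 of the 3 core libraries. Achn154181 stood at 75.2, 90.6 and 22.6 CPM in Hongyang whole fruit and 48.6, 80.5 and 243 CPM in Hongyang core, against 3.8, 13.7 and 3.33 CPM in Jinyan whole fruit and 46.9, 12.6 and 21.8 CPM in Jinyan core. Its Jinyan core replicate 2 lay below its Jinyan whole fruit replicate 2, and its Hongyang core libraries were 4.92-fold apart.

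**Figure D3:**
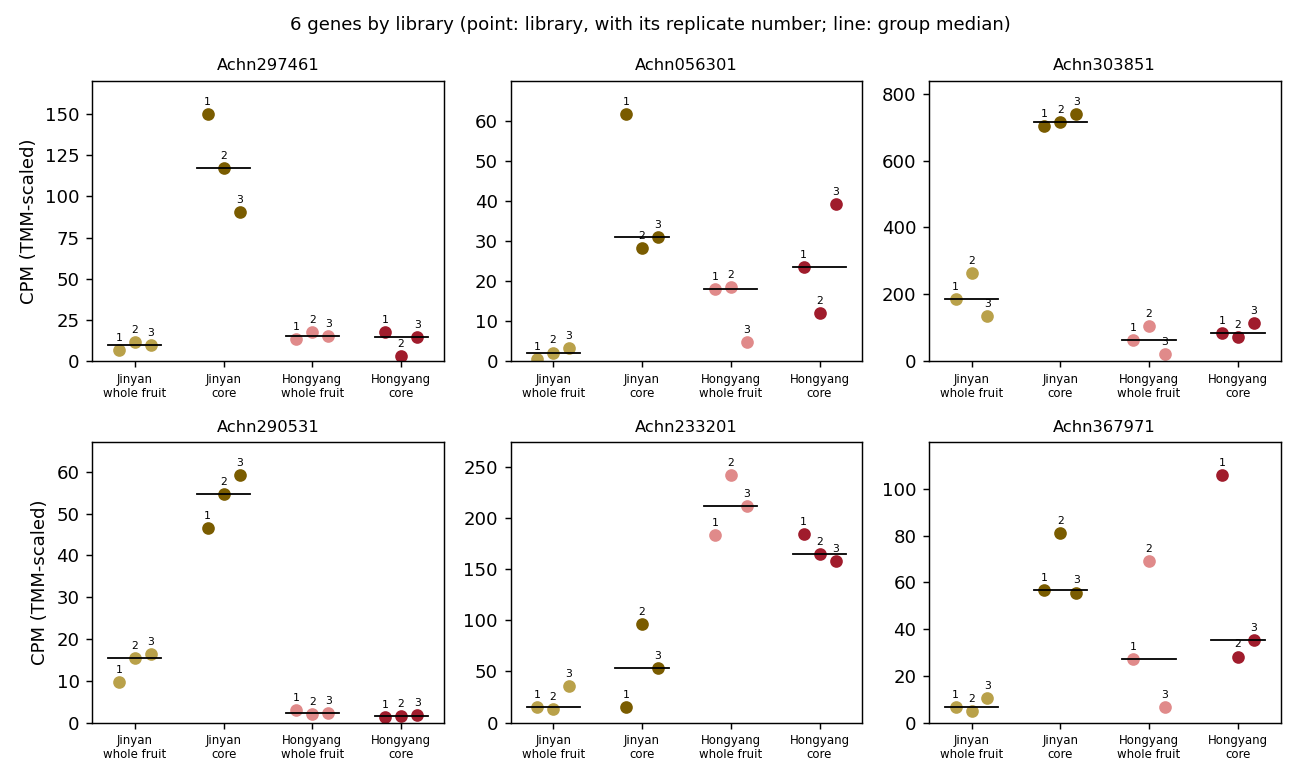
Each panel shows 1 gene, with TMM-scaled CPM on a linear axis from 0, points for libraries with their replicate numbers and lines for group medians. Jinyan core stands above Jinyan whole fruit in each panel except for replicate 1 of Achn233201, while the Hongyang level ranges from below Jinyan whole fruit (Achn290531) to above Jinyan core (Achn233201).

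Across the whole table, edgeR called 60 of the 65 members higher in Jinyan core than in Jinyan whole fruit, beside 8.15% of all genes. Of all genes called in Jinyan, 49.1% were higher in core under TMM scaling and 13.8% when libraries were scaled by their totals alone, while the median member was higher under both. The members not called were Achn154181, Achn233201 and Achn297481, described above, and Achn047031 and Achn069561, named after their values were seen, with Jinyan ratios of 3.07 and 3.06. In whole fruit 20 members were called higher in Hongyang, beside 13.7% of all genes, and 5 lower, beside 11.1%. In core 2 members were called higher in Hongyang, beside 16.0%, and 33 lower, beside 13.9%. Of these 33, 25 were among the 26 members near or below Jinyan whole fruit and 8 among those between. Of the 20 higher in whole fruit, 14 were among the 16 members near or above Jinyan core and 6 among those between. All of these comparisons share libraries with the choice of members, and nothing is read from the counts. Without Hongyang whole fruit replicate 3 the calls in whole fruit were 39 instead of 25, beside 29.1% and 24.8% of all genes in either direction.

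The interaction, which is the tissue difference in Hongyang minus that in Jinyan, was called lower for 18 members, beside 1.00% of all genes, and 56 were lower at an unadjusted p under 0.05, beside 8.80%. The fitted interaction was negative in 64 of the 65. The count depended on single libraries. Leaving out replicate 3 of Hongyang whole fruit gave 49, leaving out replicate 1 gave 9, and leaving out replicate 2 gave 15. It was 7 without Jinyan whole fruit replicate 1, 2 or 3, and 10, 6 and 10 without Jinyan core replicate 1, 2 and 3. Without Hongyang core replicate 1, 2 and 3 it was 16, 7 and 7, beside 2.11%, 0.688% and 0.841% of all genes in either direction. The share of all genes called moved too: in either direction it was 2.25% over all libraries, 8.19% without replicate 3 of Hongyang whole fruit, 3.22% without replicate 2, 1.03% without replicate 1, and 0.649 to 0.935% in the Jinyan leave-outs. DESeq2 called 35 members, beside 7.23% of all genes in either direction, and limma voom with sample weights 49, beside 13.3%. The choice of members used this difference, so the count is a description.

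To see the pattern in libraries that had no part in choosing the genes, the rule was applied again without each library in turn, and the left-out library was set against the median of the other tissue of its cultivar. The genes chosen without a Jinyan library numbered 60 to 79. In the left-out library their middle ratio of core to whole fruit was 3.73, 3.35 and 3.23 for Jinyan whole fruit replicates 1 to 3 and 2.98, 3.29 and 3.28 for Jinyan core replicates 1 to 3. Over all genes tested it was between 1.00 and 1.02. The ratio was over 1.5 in 96.7 to 100% of the chosen genes, beside 16.0 to 19.7% of all genes, and at least 3 in 48.6 to 70.5%, beside 1.62 to 2.31%. The left-out Jinyan library had no part in choosing these genes, whereas the median it was set against had.

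In left-out Hongyang libraries the chosen genes were flat no more often than all genes tested, except slightly more often in whole fruit replicate 2. For Hongyang core replicates 1, 2 and 3 left out, 56.9%, 65.0% and 69.6% of the chosen genes lay within 0.67 to 1.5, beside 70.6%, 65.3% and 70.9% of all genes. The share over 1.5 was 41.7%, 16.7% and 24.6%, beside 15.6%, 18.7% and 16.0%. For Hongyang whole fruit replicates 1 and 2 left out, 65.0% and 80.6% were within the range, beside 67.9% and 77.2%. For replicate 3 it was 13.5%, beside 39.5%, and in 86.5% of the 104 genes chosen without it the core median was over 1.5 times that library, beside 35.6% of all genes. The middle ratio in that library was 2.79, against 0.819 for replicate 2. Which genes counted as flat therefore depended on the Hongyang whole fruit library: the rule gave 36 genes without replicate 2, 33 of them among the 65, and 104 without replicate 3, 57 of them among the 65.

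**Figure D4:**
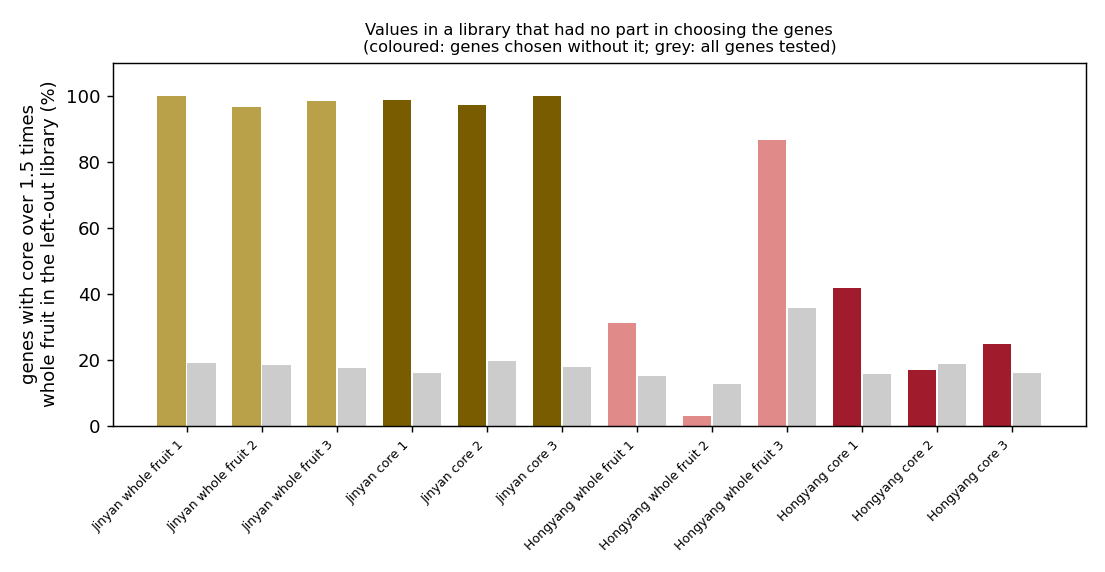
Bars give the percentage of genes in which core was more than 1.5 times whole fruit when the named library was compared with the median of the other tissue; coloured bars are genes chosen without that library and grey bars all genes tested. Coloured bars are at 96.7 to 100% for the Jinyan libraries, and in Hongyang they range from 2.78% for whole fruit replicate 2 to 86.5% for whole fruit replicate 3.

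The members formed a minority of the genes raised in Jinyan core. With the same Jinyan ratio, levels and cultivar condition, 243 genes were raised there. Of these, 174 (71.6%) had a Hongyang ratio over 1.5, 65 (26.7%) were the members, and 4 (1.65%) had a ratio under 0.67. The level conditions, which include the Jinyan core minimum, were met by 12179 genes without regard to the Jinyan ratio. Of these, 75.9% had a Hongyang ratio of 0.67 to 1.5, 15.7% a higher and 8.44% a lower one. The Jinyan ratio of the 174 genes raised in both had a middle value of 4.58 and a highest value of 45.2, against 3.58 and 11.1 in the members. The middle levels in Jinyan core were 33.3 CPM in the 174 genes and 28.8 CPM in the members. In Hongyang core they were 34.9 and 12.6 CPM, and in Hongyang whole fruit 6.51 and 9.96 CPM. The middle levels of the 2 groups of genes were thus farthest apart in Hongyang core, while the rule that parted them used the ratio of both Hongyang tissues.

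Replicates 2 and 3 of Hongyang whole fruit stood apart in the 174 genes as well, in the same directions. Replicate 3 was the lowest of its group in 84.5% of them and replicate 2 the highest in 92.0%, close to the 83.1% and 83.1% in the members. Over the 174 genes the library means of log2(CPM + 1) in Hongyang whole fruit were 3.39, 4.45 and 2.27 in replicates 1 to 3, against 5.47, 5.45 and 5.30 in Hongyang core, with no overlap. In the members the same libraries overlapped with the core. The Hongyang ratio had parted these groups of genes, so this contrast between them follows from the choice and is a description.

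**Figure D5:**
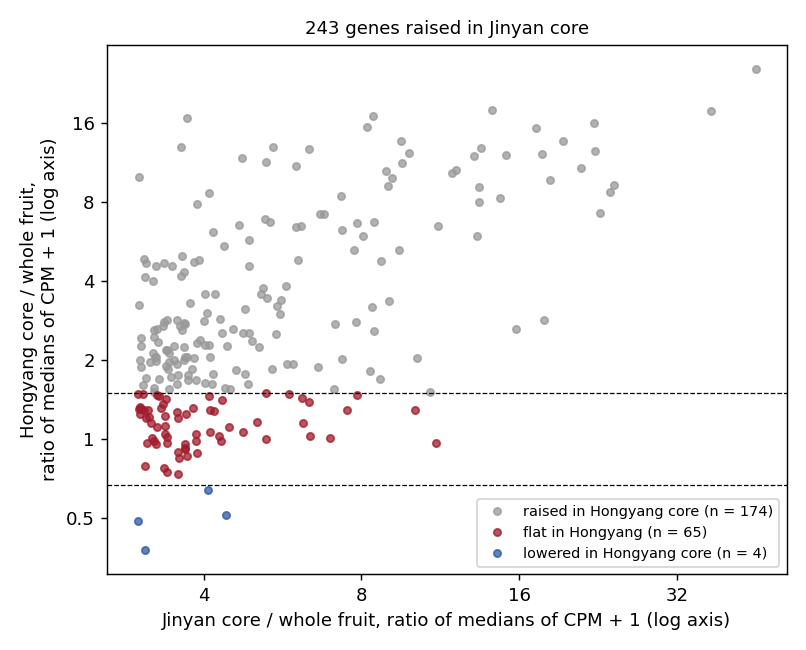
Each point is 1 of the 243 genes raised in Jinyan core, with the ratio of core to whole fruit in Jinyan on the horizontal axis and that in Hongyang on the vertical axis, both as ratios of medians of CPM + 1 on log axes. Dashed lines mark 0.67 and 1.5; the 65 members lie between them without a gap to the 174 genes above, and 4 genes lie below.

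The limits of the rule fell within a continuous range of values. Just inside the Jinyan limit were Achn165061, with a ratio of 3.005, and Achn258951, with 3.007. Just outside it, with all other conditions met, were Achn040371 at 2.999 and Achn168601 at 2.993. Achn258951 stood at 46.5, 40.1 and 48.9 CPM in Jinyan whole fruit and 122, 142 and 178 CPM in Jinyan core, and Achn168601, not a member, at 18.9, 17.6 and 15.6 and at 54.6, 42.9 and 61.3 CPM. These pairs of tissues were equally free of overlap on both sides of the limit. The Hongyang ratio closest to the upper limit was 1.498 in Achn337381, and the lowest ratio over the limit among the 174 genes was 1.52. At the lower end the member with the smallest ratio was Achn384801 with 0.7355, and the largest ratio under the limit was 0.643.

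Achn337381 was a sparse member, at 0, 0.848 and 2.68 CPM in Jinyan whole fruit and 8.7, 8.71 and 8.39 CPM in Jinyan core. Hongyang whole fruit stood at 6.47, 15.3 and 19.1 CPM and Hongyang core at 26.9, 7.08 and 23.4 CPM, so the Hongyang tissues overlapped and replicate 3 of the whole fruit was here the highest of its group. Achn384801 had a lower Hongyang median in core than in whole fruit. Its libraries stood at 27.8, 21.6 and 19.5 CPM in Hongyang whole fruit and 15.6, 22.6 and 10.1 CPM in Hongyang core. These overlapped, so no direction between the Hongyang tissues is given for this gene. Jinyan whole fruit stood at 13.5, 7.76 and 5.54 CPM and Jinyan core at 30.3, 44.2 and 22.5 CPM. Widening the Jinyan limit to a ratio of at least 2 gave 372 genes, a limit of 4 gave 22, and narrowing the Hongyang range to between 0.8 and its inverse gave 34.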

How the data were processed

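RNA from 12 libraries was analysed as the authors' deposited raw counts per gene, whole numbers without normalization. The submitters' processing notes name Trimmomatic 0.36 (a read trimmer) and HISAT2 2.1.0 (an aligner). Not given in the sources used here: the counting program, genome build, annotation and treatment of multiply aligned reads. Counts of near-identical or overlapping genes are therefore uncertain.

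Counts were analysed in R 4.3.3 with edgeR 4.0.16: filterByExpr on the 4 groups (22199 genes, 99.9% of counts), TMM factors, and the quasi-likelihood test in a single fit of the 4 group means to the 12 libraries, with two-sided tests and Benjamini-Hochberg adjustment over all genes tested, called at an adjusted p under 0.05. For each gene that fit uses 1 spread for all groups, although the Hongyang whole fruit libraries differed most, and the counts called depend on this. DESeq2 1.42.0 and limma 3.58.1 (voom) were alternatives, as were other scalings, filters, depths and sets of libraries. A left-out library kept its scaling factor from the fit of all 12. The method was tested on simulated data with known changes in Jinyan core, drawn with the same spread in every group. In the data the Hongyang whole fruit libraries differed most, so that test does not show how well flat genes are told apart.

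The members, and the lists and tests used, were chosen with earlier results of these data known. Genes were named by rank within the members, 2 per criterion: Jinyan ratio, Jinyan core level, gap between Jinyan libraries, Hongyang position in either direction, spread of Hongyang whole fruit in either direction (members with a Jinyan core median of at least 10 CPM), and closeness to the Jinyan limit, and 1 at each end of the Hongyang range. Replicates differed by more than sampling noise in each pair (chi-square over its degrees of freedom between 5.77 and 130). Nothing says that replicates came from separate fruits, so the tests measure the spread between these libraries.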

Additional observations from a re-analysis of the deposited data

Results flagged for a closer look

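The test of the difference between the cultivars picked out 18 of the 65 members, in the direction of a smaller excess of core over whole fruit for Hongyang than for Jinyan (edgeR, adjusted p under 0.05, fitted interaction negative in 64 of 65). The members were chosen for that difference. Beside these 18, 1.00% of all genes were called in that direction. The count ran from 6 to 49 when single libraries were left out, while the share of all genes in either direction ran from 0.649 to 8.19%.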

How the results depend on the processing

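With library totals only, the median gene lay at -0.40 in Jinyan (log2, core minus whole fruit) against 0.04 with TMM, and the median member at 1.57 against 1.99. The rule then gave 22 genes, 14 of them among the 65, with 20 free of overlap in Jinyan and 15 nearer Jinyan core in Hongyang against 63 and 25 as reported, and the genes raised in both numbered 94. A filter at a mean of 5 CPM gave 43 genes, all among the 65, with 41 free of overlap. A Jinyan ratio of at least 2 or 4 gave 372 or 22 genes, and a Hongyang range between 0.8 and its inverse gave 34. The membership also changed where the count stayed alike. Group means in place of medians gave 61 genes, 39 of them among the 65. A pseudocount of 2 gave 61 with 44 among the 65, and a pseudocount of 0.5 gave 68 with 53. Leaving out single libraries gave 36 to 104 genes, 35 to 102 free of overlap and 14 to 49 nearer Jinyan core, each lowest without Hongyang whole fruit replicate 2 and highest without replicate 3. Between 33 and 58 of the genes found in these leave-outs were among the 65. The mean over the members of log2 core minus whole fruit in Jinyan, 1.93, was 1.53 with library totals, 2.09 with a pseudocount of 0.5 and 1.74 with 2. Over single libraries left out, the calls among the 65 ranged from 46 to 64 in Jinyan and 0 to 2 in Hongyang. For the interaction they ranged from 6 to 49, and between cultivars from 19 to 39 in whole fruit and 29 to 45 in core. The shares of all genes called in either direction moved as well. In the same order they were 5.98 to 27.7%, 0.758 to 19.2%, 0.649 to 8.19%, 15.2 to 29.1% and 20.7 to 38.9%. DESeq2 and voom gave 1 and 3 in Hongyang, beside 11.9% and 27.5% of all genes in either direction. For the interaction they gave 35 and 49, beside 7.23% and 13.3%, and edgeR at equal depth gave 10, beside 1.69%. Fits of only the groups compared called 64 members in Jinyan, 0 in Hongyang, 18 between cultivars in whole fruit and 48 in core. Of all genes tested there they called 35.1%, 0.366%, 14.7% and 43.7% in either direction. The cause of these shifts was not tested. Same-numbered libraries of different groups did not deviate together (12 correlations of -0.06 to 0.09). A fit with the replicate block called 58 members in Jinyan, 0 in Hongyang, 14 by the interaction, 25 in whole fruit and 35 in core. Without the block these were 60, 0, 18, 25 and 35. Of all genes the block fit called 15.8%, 3.85%, 1.97%, 22.7% and 29.0%, against 16.6%, 4.68%, 2.25%, 24.8% and 30.0%. For the 17 named genes, 316 of 323 Jinyan ratios under other settings moved by less than the spread between replicates, and none changed direction. In Hongyang 320 of 323 ratios moved by less than the spread between Hongyang replicates, and 24 changed direction. The Hongyang whole fruit libraries differed most, so this yardstick was wide there and the count does not show that flat ratios held. Across these settings the Hongyang log2 ratios ran from -0.91 to 1.35, and the Jinyan ones from 1.04 to 3.93. Depth limits the values most in Hongyang whole fruit replicate 3, with under 10 counts for 32 members.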
